A study of Mus musculus with 9 samples.

Results

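The olfactomedin genes *E030002O03Rik* (also named *Olfm5*), *Olfm1*, *Olfm2*, *Olfm3* and *Olfm4* were followed in the main olfactory epithelium (MOE) of mice lacking TAAR enhancer 1, a regulatory element of the trace amine-associated receptor (*Taar*) genes. The 5 genes were taken by family name from the 24421 gene rows of the count table, and all 5 reached the minimum of 10 reads summed over the libraries, as did 20213 genes in all. The family was chosen by the level of *E030002O03Rik*, which was lower in both deletion genotypes than in wild type, so its values against wild type are given below as a description with no test.

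RNA was sequenced from whole MOE of 9 mice, 3 wild type, 3 heterozygous (TAAR enhancer 1 +/-) and 3 homozygous (TAAR enhancer 1 -/-). All were labelled as strain C57BL/6 and postnatal day 14, no agent was given, and the study describes the genotypes as littermates and the line as 1 established line made by CRISPR-Cas9 in zygotes. Elsewhere the study's material names a mixed background and an older age for its knockout mice, and the labels were followed here. The deletion is in every cell of the animal, and a value from whole tissue cannot tell fewer cells of a type from less RNA per cell.

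The olfactomedin domain was first recognised in a glycoprotein of the mucus covering the frog olfactory epithelium, and it now defines a family of mostly secreted or membrane-bound glycoproteins. *Olfm1*, *Olfm2* and *Olfm3* encode the noelins, secreted neuronal proteins that associate with AMPA-type glutamate receptors and, for *Olfm1*, with the Nogo receptor. *Olfm4* is carried in the granules of a subset of neutrophils and is widely used as a marker of intestinal crypt stem cells. Little is known of the protein encoded by *E030002O03Rik*.

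The libraries held 24583906 to 32631951 reads in genes, so 3 reads corresponded to 0.0916 to 0.122 CPM, the count scaled to the size of its library. *Taar2* to *Taar5*, the genes beside the deleted element, checked the labels: they ranged from 0.889 to 3.60 CPM in the wild type libraries and from 0 to 0.0705 CPM in the homozygous libraries. The label of the tissue was also checked, and the 10 mature olfactory neuron markers summed to 8256 to 9164 CPM over the 9 libraries and none was at 0. Vomeronasal receptor reads set 3 libraries apart, with 67.9 CPM in heterozygous replicate 1, 119.7 in homozygous replicate 2 and 69.5 in homozygous replicate 3, against at most 17.3 in the other 6. Values without these libraries are given below for *E030002O03Rik* and wherever leaving them out turned a direction or moved a value of another member by over 1.5 times.

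In GENCODE M21 (GRCm38, the same assembly as mm10) *E030002O03Rik* (ENSMUSG00000044265.16) lies at chr7:104153013-104164831 on the minus strand, while the *Taar* genes and the deleted element lie on chromosome 10. The model has 2268 bp of exon in at most 6 exons and 2 transcripts, and no other annotated gene overlaps it. Its exons share no stretch of 50 or 100 bases with the transcripts of another gene. The 250 bases before its start in RefSeq (GRCm38.p6, chr7:104164817-104165066, minus strand) are shown because this is the gene whose level set the family apart, and are printed 5′ to 3′ with no capitals because none of the motifs searched was found.
E030002O03Rik promoter: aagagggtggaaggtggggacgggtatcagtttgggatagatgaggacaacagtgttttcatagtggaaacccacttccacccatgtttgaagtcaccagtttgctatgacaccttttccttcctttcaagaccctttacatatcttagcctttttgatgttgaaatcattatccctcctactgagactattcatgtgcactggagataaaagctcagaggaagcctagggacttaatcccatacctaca

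The motifs were read on both strands: the TATA box TATAAA, the homeodomain core TAATTA, which LHX2-type factors bind, the EBF half-sites joined as CCCNNGGG, and the E-box CAGCTG. None of them contains another, and of 32851 RefSeq promoters of the same length 12.4%, 4.84%, 11.8% and 13.0% held them, in that order. Among the promoters listed for the other olfactomedin genes, CAGCTG was found in 1 of the promoters of *Olfm3*, and no other match was present. A match or its absence in this window describes these letters only.

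In wild type MOE the family reached from the upper to the lower end of gene levels (the plot of wild type levels). Per length of exon, *Olfm1* stood at 90.0 ± 4.68 CPM per kb (SD, n = 3), above 98.5% of the 19937 genes ranked. *E030002O03Rik* followed within the family at 26.1 ± 2.14 CPM per kb, above 90.1% of genes. *Olfm2* was at 4.05 ± 0.240 CPM per kb, above 48.8% of genes, and *Olfm4* at 1.56 ± 0.775, above 33.7%. *Olfm3* was at 0.0308 ± 0.0127 CPM per kb, above 3.40% of genes only.

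Set among the 9 other genes with an olfactomedin domain, *E030002O03Rik* ranked behind *Olfm1* and *Adgrl1*, a latrophilin that acts as an adhesion receptor at synapses, which was at 46.6 ± 0.607 CPM per kb. It ranked ahead of *Gldn* (gliomedin, a matrix protein of nodes of Ranvier, 18.5 ± 0.901), *Olfml2b* (13.7 ± 1.63) and *Olfml3* (10.5 ± 0.458). Ranges of the wild type libraries overlapped between 3 pairs of neighbours in this order: *Olfml1* and *Adgrl2*, *Olfml2a* and *Olfm2*, and *Myoc* and *Olfm3*. *Myoc* encodes myocilin and had 2 to 8 reads per library. With the longest annotated transcript as the length, *Olfm1* came to 116 and *Olfm2* to 5.38 CPM per kb.

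**Figure D1:**
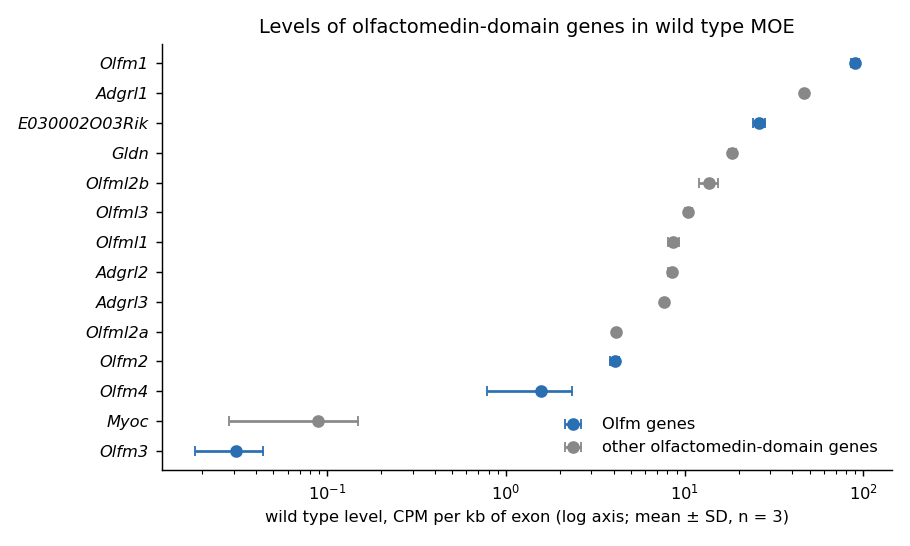
Wild type level of each olfactomedin-domain gene in CPM per kb of exon on a log axis; points are means and bars are SD over 3 mice, blue for the *Olfm* genes and grey for the others. *Olfm1* is highest at 90.0, *E030002O03Rik* is at 26.1 and *Olfm3* is lowest at 0.0308.

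*E030002O03Rik* had 62.5, 53.7 and 61.6 CPM in the 3 wild type libraries. The heterozygous libraries held 44.1, 39.5 and 39.8 CPM and the homozygous libraries 37.3, 42.5 and 41.9 CPM. Every one of the 6 deletion libraries was below every wild type library, with a gap from 44.1 to 53.7 CPM (the plot of members by library). That arrangement was met by 200 of the 20213 genes tested, or 0.989%, and because the gene was chosen for it nothing is read from it.

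The mean was 59.3 ± 4.86 CPM in wild type, 41.1 ± 2.54 in heterozygous and 40.6 ± 2.81 in homozygous mice (SD, n = 3 each), so that the deletion genotypes had 69.4% and 68.5% of the wild type mean. On the log2 scale the fitted difference was -0.55 (SE 0.071) for homozygous minus wild type and -0.52 (SE 0.070) for heterozygous minus wild type. Both use the same wild type libraries. The gene was well covered, with 1045 to 1757 reads per library. Its coefficient of variation was 8.21% in wild type, 6.16% in heterozygous and 6.93% in homozygous mice, where counting alone would give 2.47%, 2.94% and 3.07%.

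The choice of the gene did not use the difference of the 2 deletion genotypes from each other, but it did use their libraries. Because both had to be low, the choice itself favours a small difference between them, so the test below is not independent of it. Homozygous and heterozygous libraries overlapped, and their difference was -0.02 on the log2 scale (SE 0.072, 95% interval -0.17 to 0.13; edgeR quasi-likelihood test, Benjamini-Hochberg adjusted p = 0.949 over all genes). The interval in folds ran from 0.887 to 1.10. Over the 18 alternatives that gave a p, the adjusted p lay between 0.733 and 0.990. For contrast, *Taar2* and *Taar5* averaged 1.94 and 1.62 CPM in heterozygous mice and 0.0253 and 0 CPM in homozygous mice.

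Leaving out each library in turn gave *E030002O03Rik* differences of -0.61 to -0.49 for homozygous minus wild type and -0.60 to -0.49 for heterozygous minus wild type. Without the 3 libraries with vomeronasal reads they were -0.66 and -0.58, with homozygous replicate 1 then the lone homozygous library and assumed to vary like the other groups, and homozygous minus heterozygous was -0.09.

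**Figure D2:**
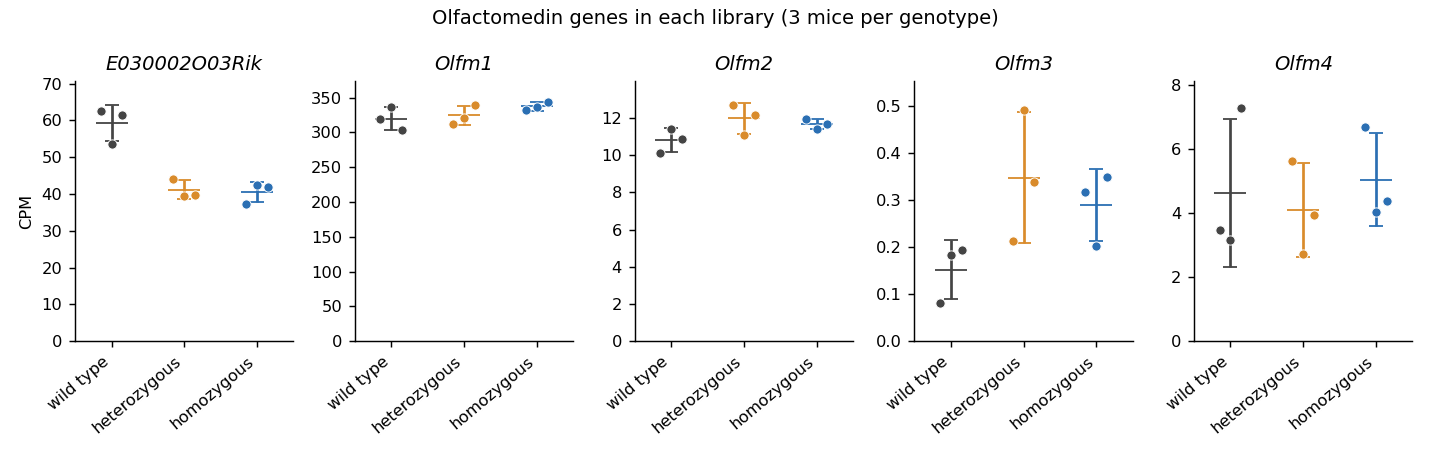
CPM of each olfactomedin gene (one panel each, linear axes from 0 with their own scale) in the 3 libraries per genotype; points are libraries, long lines are means and bars are SD. The 6 deletion libraries of *E030002O03Rik* lie at 37.3 to 44.1 CPM, below the 3 wild type libraries at 53.7 to 62.5; *Olfm3* and *Olfm4* vary widely within genotypes.

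None of *Olfm1* to *Olfm4* passed the threshold of adjusted p 0.05 in any genotype pair by the edgeR quasi-likelihood test. Of all genes, 0.0495% passed in homozygous minus wild type, 0.00495% in heterozygous minus wild type and 0.114% in homozygous minus heterozygous. The 1 gene behind the heterozygous minus wild type share was *E030002O03Rik* itself, which was also among those passing in homozygous minus wild type. As it was chosen for these comparisons, nothing is read from its passing. None of *Olfm1* to *Olfm4* was under an unadjusted p of 0.05 either, where 9.26%, 3.25% and 10.4% of all genes were, in the same order. DESeq2 called none of the 4. Its independent filtering, which drops genes of low count, left *Olfm2*, *Olfm3* and *Olfm4* without an adjusted p in homozygous minus wild type. It did the same to *Olfm3* and *Olfm4* in homozygous minus heterozygous. Without that filtering the DESeq2 adjusted p of the first 3 were 0.968, 0.923 and 0.999, and of the last 2 were 0.982 and 0.952.

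*Olfm1*, the most abundant member, was the most even. It had 319, 337 and 304 CPM in wild type, 312, 321 and 339.9 in heterozygous and 332, 336 and 344 in homozygous libraries, and all genotypes overlapped. Its difference was 0.077 on the log2 scale for homozygous minus wild type (SE 0.049, 95% interval -0.026 to 0.18, edgeR adjusted p = 0.664). For heterozygous minus wild type it was 0.020 (interval -0.083 to 0.12) and for homozygous minus heterozygous 0.057 (interval -0.046 to 0.16, edgeR adjusted p = 0.740). Without the 3 libraries with vomeronasal reads the last 2 were 0.047 and 0.0070. The 3 intervals of *Olfm1* reached no lower than -0.083 on the log2 scale.

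*Olfm2* had 10.1, 11.4 and 10.9 CPM in wild type, 12.7, 11.1 and 12.1 in heterozygous and 11.9, 11.4 and 11.6 in homozygous libraries. The homozygous libraries all lay above the wild type libraries, as they did for 7.46% of all genes tested, with the closest pair at 11.42 and 11.39 CPM. The difference was 0.11 for homozygous minus wild type (95% interval -0.089 to 0.31, edgeR adjusted p = 0.776) and 0.15 for heterozygous minus wild type (interval -0.050 to 0.35). Homozygous minus heterozygous was -0.038 (interval -0.24 to 0.16, edgeR adjusted p = 0.927), and it was 0.039 without the 3 libraries with vomeronasal reads.

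*Olfm3* was barely detected, with 2, 6 and 5 reads in wild type, 6, 13 and 10 in heterozygous and 9, 5 and 9 in homozygous libraries. In CPM the means were 0.152 ± 0.0626, 0.348 ± 0.139 and 0.289 ± 0.0763. Both deletion genotypes lay above wild type in every library, which 4.36% of genes did in heterozygous and 7.46% in homozygous mice. The log2 difference was 0.89 for homozygous minus wild type (SE 0.60, 95% interval -0.37 to 2.19, edgeR adjusted p = 0.679) and 1.14 for heterozygous minus wild type (SE 0.58, interval -0.07 to 2.40). Both intervals include 0. Homozygous minus heterozygous was -0.25 (interval -1.38 to 0.88, edgeR adjusted p = 0.909), and it was -0.38 without the 3 libraries with vomeronasal reads.

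*Olfm4* had 3.45, 3.15 and 7.27 CPM in wild type, 5.63, 2.72 and 3.92 in heterozygous and 6.69, 4.02 and 4.37 in homozygous libraries. One library of each genotype was well above the other two, and the genotypes overlapped. The coefficient of variation was 49.7%, 35.7% and 28.9%, where counting alone would give 8.92%, 9.31% and 8.64%. Homozygous minus wild type was 0.14 (95% interval -0.50 to 0.78, edgeR adjusted p = 0.930), heterozygous minus wild type -0.16 (interval -0.81 to 0.49) and homozygous minus heterozygous 0.30 (interval -0.35 to 0.95, edgeR adjusted p = 0.785). Without wild type replicate 3, the library at 7.27 CPM, the first of these was 0.62 and the second 0.32. Leaving out each library in turn gave 0.035 (without homozygous replicate 1) to 0.60 (without heterozygous replicate 1) for homozygous minus heterozygous. Without the 3 libraries with vomeronasal reads the 3 differences were 0.54 (SE 0.36), -0.46 (SE 0.31) and 1.00 (SE 0.39), with edgeR adjusted p of 0.925, 0.999 and 0.956.

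The 12 neutrophil markers summed to 815, 873 and 1088 CPM in wild type, 1115, 1099 and 568 in heterozygous and 694, 839 and 603 in homozygous libraries, with none at 0. The library highest in *Olfm4* also had the highest of these sums in wild type and in heterozygous mice, but not in homozygous mice. Over the 9 libraries *Ltf* (lactoferrin), which nasal glands make as well, averaged 567 CPM and *Mmp9* (a matrix metalloproteinase) 233 CPM. *Ltf* and *Mmp9* thus made up most of the sum, and single markers need not follow it. In homozygous libraries *Lcn2* ranged from 21.5 to 78.9 CPM and *Ltf* from 320 to 598 CPM. Which library was highest in each single marker is not given here. The granule genes *Camp*, *Ngp*, *Elane* and *Mpo* were at no more than 1.51 CPM in any library. The part of these cells in the spread of *Olfm4* was not tested. Of the exons of *Olfm4*, 153 bp are shared on the same strand with the noncoding gene *Gm6999*, and 96.4% of its 50-base stretches were unique.

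**Figure D3:**
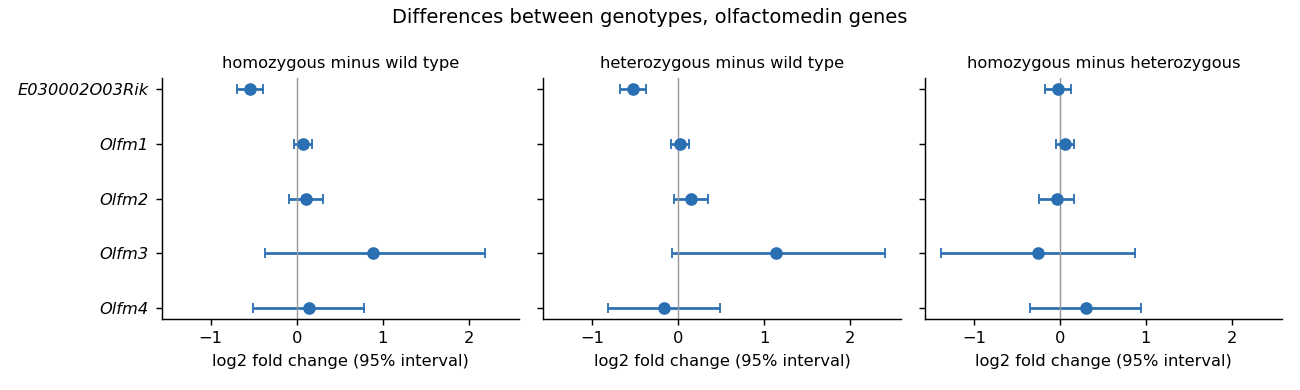
Log2 fold change of each olfactomedin gene in the 3 genotype pairs; points are edgeR estimates and bars 95% intervals. For *E030002O03Rik* both comparisons with wild type are a description, at -0.55 and -0.52, and the pair of deletion genotypes is at -0.02; every interval of *Olfm1* to *Olfm4* includes 0.

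The other olfactomedin-domain genes stayed below the threshold as well. By edgeR 0 of 9 passed in each pair, with 1, 1 and 4 under an unadjusted p of 0.05 in homozygous minus wild type, heterozygous minus wild type and homozygous minus heterozygous, where 9.26%, 3.25% and 10.4% of all genes were. The median log2 fold changes were -0.067, 0.045 and -0.045, against -0.00057, 0.0033 and -0.0017 over all genes tested. In homozygous minus wild type, *Olfml2b* was at -0.19 (adjusted p = 0.508), *Olfml2a*, which encodes a secreted matrix-binding protein, at -0.16 (adjusted p = 0.616) and *Olfml1* at -0.078 (adjusted p = 0.856).

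*Olfml2a* was the member of that group whose call depended on the tool. It ranged from 22.8 to 23.2 CPM in wild type, from 24.9 to 29.6 in heterozygous and from 18.1 to 23.0 in homozygous libraries, so every homozygous library was below every heterozygous library, as in 7.67% of all genes. Homozygous minus heterozygous was -0.39 (SE 0.088), with an adjusted p of 0.121 by edgeR and 0.0124 by DESeq2. DESeq2 called 1.05% of the 12375 genes it gave an adjusted p in this pair. Without heterozygous replicate 3 the difference was -0.44, with an edgeR adjusted p of 0.0398, and 0.945% of all genes were called under that setting.

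A further 16 genes encode proteins that bind olfactomedin-domain proteins. They include AMPA receptor subunits, the Nogo receptor complex, FLRT and teneurin adhesion molecules, and axonal cell adhesion molecules. In every pair edgeR called 0 of these 16, as did DESeq2 with and without its independent filtering. Under an unadjusted p of 0.05 there were 3, 1 and 3 of the 16, where 9.26%, 3.25% and 10.4% of all genes were. The medians were -0.055, 0.049 and -0.059. *Gria2*, an AMPA receptor subunit, was at -0.56 in homozygous minus wild type (adjusted p = 0.551) with only 20 to 58 reads per library. *Tenm1* (teneurin 1) was at -0.22 (adjusted p = 0.791) and *Nfasc* (neurofascin, an axonal cell adhesion molecule) at 0.18 (adjusted p = 0.376).

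*E030002O03Rik* sits among class I odorant receptor genes and *Trim* genes on chromosome 7, so the genes within 250 kb were examined next. Of 42 annotated there, 27 were in the count table and all 27 were tested, 16 of them odorant receptors and 7 of the *Trim* family, which includes intracellular antiviral factors. In each of the 3 pairs 0 of the 27 were called by edgeR and 0 by DESeq2, with or without its independent filtering. With that filtering DESeq2 can leave genes of low count without an adjusted p, so its 0 says little of them. Under an unadjusted p of 0.05 there were 4, 0 and 1 of the 27, where 9.26%, 3.25% and 10.4% of all genes were. Their median log2 fold changes were -0.091 for homozygous minus wild type, -0.016 for heterozygous minus wild type and -0.13 for homozygous minus heterozygous.

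The nearest gene, *Ubqlnl*, of the ubiquilin family, ends 2.457 kb away on the side of lower coordinates and had 23 to 53 reads per library. It averaged 1.62 ± 0.346 CPM in wild type, 1.36 ± 0.435 in heterozygous and 1.13 ± 0.331 in homozygous mice, with overlapping ranges. Its log2 difference was -0.53 for homozygous minus wild type (SE 0.29, adjusted p = 0.617) and -0.24 for heterozygous minus wild type (SE 0.28). On the other side *Olfr648*, an odorant receptor gene 12.767 kb away, was at -0.11 (SE 0.20) and -0.068 (SE 0.20).

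The gene with the lowest fitted value in homozygous minus wild type, *Trim34b* at -1.79, had 2 to 11 reads per library (adjusted p = 0.447). Over 5000 kb on each side, a window added after the data had been examined, 301 genes were tested. None was called in any pair by edgeR, nor by DESeq2 with or without its independent filtering. Without heterozygous replicate 3, *Olfr550* at 0.68 and *Taf10* (a subunit of the general transcription factor TFIID) at 0.60 passed in homozygous minus heterozygous, or 0.669% of the 299 genes then tested in the window against 0.945% of all genes.

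**Figure D4:**
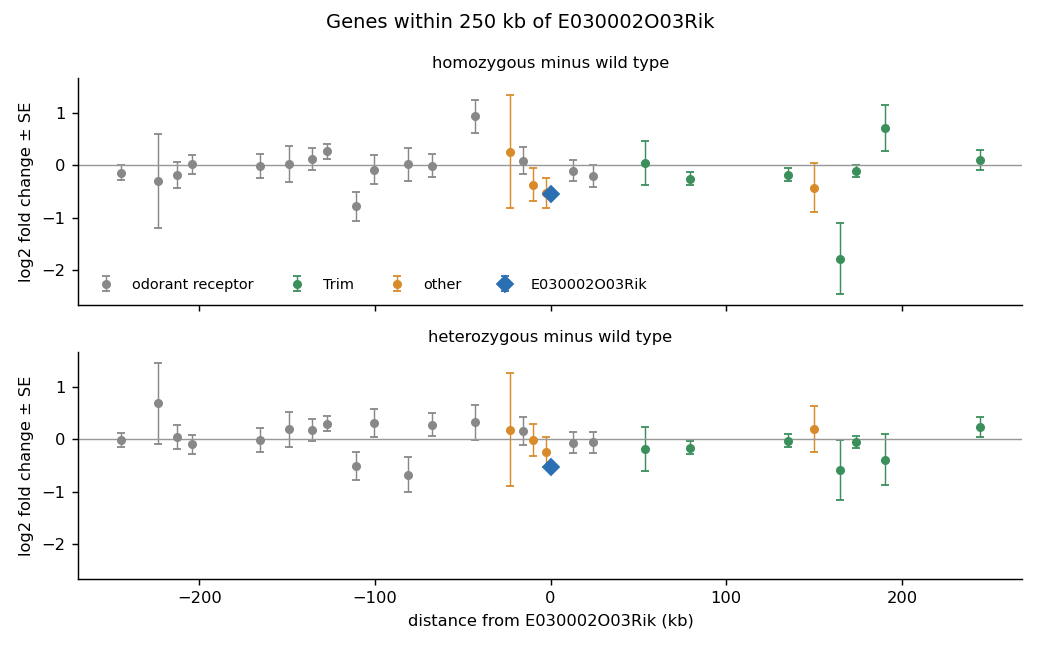
Log2 fold change ± SE of the genes within 250 kb of *E030002O03Rik* against distance from it in kb (negative on the side of lower coordinates), for homozygous (top) and heterozygous (bottom) minus wild type. Grey points are odorant receptors, green *Trim* genes, orange other genes and the blue diamond *E030002O03Rik*; no neighbour passed the threshold, and *Ubqlnl*, the nearest, is at -0.53 and -0.24.

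The genes whose pattern over the 9 libraries was most like that of *E030002O03Rik* were sought among 16164 genes with a mean of at least 1 CPM. Likeness was the root mean square difference between log2 CPM values, each centred on the gene's own mean, and *E030002O03Rik* itself had a root mean square of 0.267 about its mean. The smallest differences were 0.112 for *Cep85l*, 0.122 for *Olfr691*, 0.134 for *Akr1c18*, 0.151 for *Fndc5* and 0.157 for *Higd1b*. As the pattern was the one the gene was chosen for, these are descriptions.

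*Cep85l*, a centrosomal protein gene on chromosome 10 (chr10:53273443-53379947), averaged 4.82 ± 0.293 CPM in wild type, 3.55 ± 0.104 in heterozygous and 3.56 ± 0.0667 in homozygous mice. *Olfr691* is an odorant receptor gene at chr7:105335509-105342270, 1170.678 kb from *E030002O03Rik*, and averaged 4.40 ± 0.204, 3.67 ± 0.305 and 3.38 ± 0.221 CPM. *Akr1c18* (20-alpha-hydroxysteroid dehydrogenase, which inactivates progesterone) averaged 6.59 ± 0.623, 5.57 ± 0.575 and 5.15 ± 0.314 CPM. *Fndc5*, the irisin precursor, and *Higd1b*, a HIG1 domain protein found in pericytes, followed at lower levels. When each gene was first scaled by its own SD, 2 of these 5 genes, *Olfr691* and *Cep85l*, were again among the nearest 5.

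**Figure D5:**
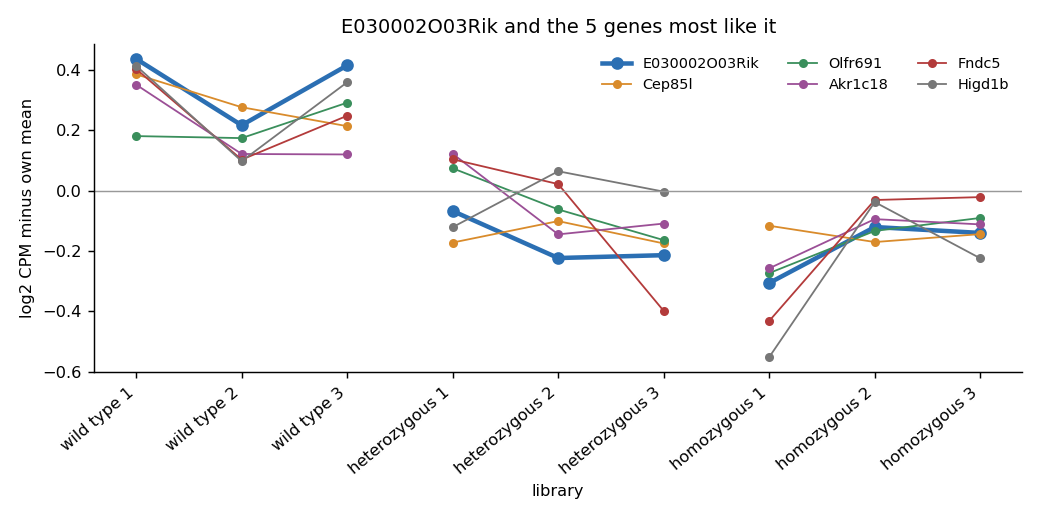
Log2 CPM minus the gene's own mean in each of the 9 libraries for *E030002O03Rik* (thick blue line) and the 5 genes nearest to it; lines join libraries of a genotype only to guide the eye. All 6 genes are above their mean in the 3 wild type libraries, and *E030002O03Rik* and *Cep85l* are below it in all 6 deletion libraries.

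Markers of the cell types in the tissue were set beside these values. Over 10 lists with 66 genes edgeR called 0 in every pair, with 12, 5 and 11 under an unadjusted p of 0.05, where 9.26%, 3.25% and 10.4% of all genes were. DESeq2 called 1, *Bpifa1*, a secreted protein of nasal glands and airway epithelium, at -0.33 in homozygous minus wild type (adjusted p = 0.000154 by DESeq2 and 0.105 by edgeR). Over the whole table that pair gave 63 genes with DESeq2 default settings and 54 without its independent filtering, against 10 by edgeR. No list had a summed level that set all 6 deletion libraries apart from the wild type libraries. Of single genes tested, 0.989% had all 6 below every wild type library, so its absence from 10 lists says little.

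In homozygous mice alone, 4 of the 10 lists lay outside the wild type range, 2 above and 2 below. Of single genes tested, 7.46% had every homozygous library above every wild type library. The share with every homozygous library below is not given here, so the 2 lists below have no background beside them. Homozygous replicates 2 and 3 held 119.7 and 69.5 CPM of vomeronasal receptor reads. The part of the tissue taken in these sums was not tested. The mature olfactory neuron markers summed to 8506 to 9164 CPM in homozygous against 8256 to 8331 in wild type libraries, and the immature neuron markers to 1823 to 1884 against 1754 to 1779. The 8 nasal gland markers summed to 3940 to 4555 CPM against 5001 to 5398, and the 5 markers of ciliated respiratory cells to 299.8 to 353 against 359.5 to 424. In heterozygous mice the sums were 8329 to 8908, 1660 to 1859, 3775 to 5568 and 292 to 463 CPM, overlapping wild type, and no marker of these lists was at 0. The part of these cells in the homozygous value of *E030002O03Rik* was not tested.

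The other 6 lists overlapped wild type in both deletion genotypes. Sustentacular cell markers summed to 10408 to 10901 CPM in wild type, 9696 to 10919 in heterozygous and 9833 to 10496 in homozygous libraries. Neuronal progenitor markers lay between 167 and 187 CPM, horizontal basal cell markers between 99.5 and 132, olfactory ensheathing glia markers between 268 and 326, and connective tissue markers between 11175 and 14272, over all 9 libraries.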

How the data were processed

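RNA from whole MOE of 9 mice was made into strand-specific, polyA-selected libraries. Per the labels, the submitters' processing notes name Trimmomatic 0.36, HISAT2 2.1.0, HTSeq 0.6.1p1 and DESeq2 1.20.0 with GRCm38 (mm10), while the study's methods name featureCounts; the gene annotation and strand setting are not given in the sources used here. The deposited table analysed here holds raw counts per gene as the authors made them, with 1 column per mouse. The authors also deposited a normalized signal (each count over its library's DESeq2 size factor), used only as an alternative.

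The 5 summary rows were left out, and reads in genes made up 57.4 to 60.0% of the listed reads. Genes with at least 10 counts over the 9 libraries were tested by quasi-likelihood F tests in edgeR 4.0.16 (limma 3.58.1, R 4.3.3), with TMM normalization and genotype as the only term, with Benjamini-Hochberg adjustment over all 20213 genes and a threshold of 0.05. CPM used TMM library sizes. Standard errors are the log2 fold change over the root of the F statistic, and intervals are 95%. Steps were run on simulated data with the same spread for every gene and changes only in well-covered genes. The spread of *Olfm3* and *Olfm4* was larger than the simulated spread, so that run does not speak for them. DESeq2 1.42.0 was an alternative, beside other scalings, filters, sample sets and a vomeronasal covariate.

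Coordinates and exon lengths are from GENCODE M21, in which 23311 rows matched by symbol and 654 by a RefSeq synonym. Levels are compared between genes only as CPM per kb of exon.

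The members and lists were chosen with earlier results of these data known. Named were the 5 members; of the other olfactomedin-domain genes and binding partners, those called and the 3 with the largest homozygous minus wild type difference at a mean of at least 1 CPM; within 250 kb, the nearest gene on each side, those called and those overlapping; the 5 genes most like *E030002O03Rik*; *Taar2* to *Taar5*; and markers called. *Adgrl1*, *Gldn*, *Olfml3*, *Adgrl2*, *Myoc*, *Ltf*, *Lcn2*, *Mmp9*, *Camp*, *Ngp*, *Elane*, *Mpo*, *Trim34b*, *Trim34a*, *Olfr641*, *Olfr646*, *Olfr550* and *Taf10* were named after their values were seen.

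Every pair of replicates differed by more than sampling noise (chi-square per degree of freedom at least 4.34). Nothing beyond the labels shows what the replicates share, so p-values measure the spread between these mice. Counting floors cover counting error only. Same-numbered replicates of different genotypes did not deviate together, so the numbers were not taken as pairs.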

Additional observations from a re-analysis of the deposited data

How the results depend on the processing

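Of the recomputed log2 fold changes of the 5 genes, 13 reversed their sign and 268 kept their direction and, where tested, their side of the threshold. The homozygous minus wild type value of *E030002O03Rik* was -0.68 with a vomeronasal covariate. No alternative took *Olfm1* to *Olfm4* past the threshold in any pair. Homozygous minus heterozygous reversed for *Olfm2* without the 3 libraries with vomeronasal reads (0.039) and for *Olfm3* with the covariate (0.013). Leaving out each library in turn gave ranges that cross 0 for homozygous minus heterozygous of *E030002O03Rik* (-0.051 to 0.036), *Olfm2* (-0.090 to 0.0067) and *Olfm3* (-0.50 to 0.070), heterozygous minus wild type of *Olfm1* (-0.018 to 0.057) and *Olfm4* (-0.46 to 0.32), and homozygous minus wild type of *Olfm4* (-0.13 to 0.62). The cause was not tested.

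Genes called over the whole table moved more. Homozygous minus wild type gave 10, and 63 with DESeq2 defaults, 54 without its independent filtering, 47 with only the 6 libraries compared and 8 to 33 leaving out each library in turn. Heterozygous minus wild type gave 1, which was *E030002O03Rik*, the gene the family was chosen by. That pair gave 3 with DESeq2 under both settings, 0 with the replicate block, 0 with only the 6 libraries compared and 0 to 1 leaving out each library. Homozygous minus heterozygous gave 23, and 130 and 126 with DESeq2, 50 with no filter on low counts, 41 with the replicate block, 11 with only the 6 libraries compared, 6 without the 3 vomeronasal libraries, 8 with the covariate and 7 to 190 leaving out each library. Of the other olfactomedin-domain genes, 1 was called in homozygous minus heterozygous by DESeq2 under both settings and 0 to 1 leaving out each library. Deviations of same-numbered replicates correlated at -0.213 to 0.0916, which cannot show whether they shared a litter or batch. With the replicate block *E030002O03Rik* was at -0.54, -0.52 and -0.02. Depth limits *Olfm3* most, at 2 to 13 reads per library.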
